A study of Mus musculus with 26 samples.

Results

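The mitochondrial ribosomal protein genes are the nuclear genes whose symbols start with Mrpl (proteins of the large subunit) or Mrps (small subunit) followed by a digit. A gene was taken when the array annotation mapped a probe set to that symbol alone, pseudogene symbols were left out, and each gene was represented by the probe set that was brightest on average. This gave 77 genes, 48 Mrpl and 29 Mrps, of 19937 genes with a single symbol on the array. Their signals were compared across 26 arrays in 8 groups of mouse cells of strain C57BL/6, from a study of the leukaemia fusion MLL-AF9 in cells of different origin. Long-term haematopoietic stem cells (LT-HSC, 4 arrays) and granulocyte macrophage progenitors (GMP, 4 arrays) had been sorted from wild-type bone marrow. Lines immortalized from LT-HSC had been grown with doxycycline (dox) for 48 h (2 arrays) and 72 h (3 arrays) or without it for 48 h (3 arrays) and 72 h (3 arrays). Lines immortalized from GMP had been grown for 48 h with dox (4 arrays) or without it (3 arrays).

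In lines of this kind dox is known to switch the fusion gene on, which the labels used here do not state, and the labels leave unsaid whether the hours run from its addition or its withdrawal. Arrays of the lines with the same replicate number came from the same line, so dox and its absence could be compared within a line, and whether each line was a single clone is not given. Sorted replicates are called biological in the labels, without saying that they were separate animals, and all p-values measure the spread between these samples. The values are deposited log2 probe set signals, with array medians between 5.81 and 5.91, so a difference of 1 is a doubling of signal. In bulk samples fewer cells of a type and less RNA per cell cannot be told apart.

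The sorted cells carried the markers of their labels. The mean of 8 stem cell markers lay between 8.62 and 8.73 in sorted LT-HSC and between 5.40 and 5.58 in sorted GMP, and the mean of 10 GMP and primary granule markers between 5.96 and 6.26 in LT-HSC and between 9.32 and 9.42 in GMP. All lines, including those from LT-HSC, had GMP markers at 8.85 to 9.43 and stem cell markers at 4.97 to 6.55. No array was identical to another. The array of replicate 3 of the LT-HSC lines without dox at 72 h had an upper quartile of 7.25, below the 7.33 to 7.43 of the other cultured arrays.

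The mitochondrial ribosome translates the few messages of mitochondrial DNA, which encode core subunits of the respiratory chain and ATP synthase. Its RNA is made in the organelle, but its proteins are encoded in the nucleus, made in the cytosol and imported. Many of them have a bacterial homologue and others are specific to mitochondria. Blood stem cells are known for low reliance on mitochondrial respiration, and acute myeloid leukaemia cells have been described as sensitive to block of mitochondrial translation. Of the 77 genes, 50 encode large-subunit proteins, among them Mrps30 and Mrps18a in spite of their names. Of these, 30 have a bacterial homologue and 20 are mitochondria-specific. A further 26 encode small-subunit proteins, 16 with a bacterial homologue and 10 counted as mitochondria-specific. Mrps18a and Mrps18b were counted as mitochondria-specific, although their paralogue Mrps18c was counted with a bacterial homologue. Mrps36, now known as a component of the 2-oxoglutarate dehydrogenase complex, was not placed in a subunit.

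The promoters are shown for genes that carry the patterns described here. Mrps18b, Mrpl3, Mrpl23 and Mrps22 rose in the dox comparison of GMP lines (Mrps22 not with line as a block), Mrps21 and Mrps18c rose between the sorted cells but showed no dox difference, and Mrpl52 fell between the sorted cells. Each sequence is the 250 bases before the start of the gene in RefSeq (build GRCm38.p6), 5′ to 3′ on the strand of the gene. They lie at chr17:35916441-35916690 (minus strand) for Mrps18b, chr9:105053018-105053267 (plus) for Mrpl3, chr7:142532782-142533031 (plus) for Mrpl23 and chr9:98601680-98601929 (minus) for Mrps22. Those of Mrps21, Mrps18c and Mrpl52 lie at chr3:95871515-95871764 (minus), chr5:100798509-100798758 (plus) and chr14:54426659-54426908 (plus). Capitals mark matches, on either strand, to the letters CCGGAAG (the core bound by ETS factors such as GABP), TGCGCA (a core of NRF1 sites), GATGGCG (YY1) and CACGTG (an E-box).
Mrps18b: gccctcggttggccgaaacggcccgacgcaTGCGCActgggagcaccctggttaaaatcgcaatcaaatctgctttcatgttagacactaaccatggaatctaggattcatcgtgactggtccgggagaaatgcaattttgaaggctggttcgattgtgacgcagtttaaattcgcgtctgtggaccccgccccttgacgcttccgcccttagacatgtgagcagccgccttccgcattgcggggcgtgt
Mrpl3: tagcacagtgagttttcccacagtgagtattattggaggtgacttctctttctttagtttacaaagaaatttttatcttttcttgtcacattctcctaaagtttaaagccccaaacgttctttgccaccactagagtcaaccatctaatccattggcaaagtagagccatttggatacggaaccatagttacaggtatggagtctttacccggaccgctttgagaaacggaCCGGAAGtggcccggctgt
Mrpl23: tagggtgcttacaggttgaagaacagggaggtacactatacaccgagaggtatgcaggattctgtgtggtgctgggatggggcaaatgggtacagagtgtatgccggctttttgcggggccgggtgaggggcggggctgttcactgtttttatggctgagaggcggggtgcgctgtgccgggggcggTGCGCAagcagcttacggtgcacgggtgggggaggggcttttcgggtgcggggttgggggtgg
Mrps22: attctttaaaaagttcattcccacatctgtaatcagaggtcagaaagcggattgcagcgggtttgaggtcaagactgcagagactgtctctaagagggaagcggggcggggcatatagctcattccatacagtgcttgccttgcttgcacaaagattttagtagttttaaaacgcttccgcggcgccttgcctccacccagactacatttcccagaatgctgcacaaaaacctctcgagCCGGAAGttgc
Mrps21: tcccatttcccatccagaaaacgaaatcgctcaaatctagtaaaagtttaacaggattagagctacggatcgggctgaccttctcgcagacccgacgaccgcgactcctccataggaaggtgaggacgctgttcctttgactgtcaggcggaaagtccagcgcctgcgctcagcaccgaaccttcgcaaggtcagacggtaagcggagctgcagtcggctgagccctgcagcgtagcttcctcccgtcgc
Mrps18c: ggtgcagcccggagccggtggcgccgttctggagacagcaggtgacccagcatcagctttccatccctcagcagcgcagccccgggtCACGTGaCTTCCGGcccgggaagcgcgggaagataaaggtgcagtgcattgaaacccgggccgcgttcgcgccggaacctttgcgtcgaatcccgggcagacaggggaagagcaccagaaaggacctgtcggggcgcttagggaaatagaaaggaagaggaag
Mrpl52: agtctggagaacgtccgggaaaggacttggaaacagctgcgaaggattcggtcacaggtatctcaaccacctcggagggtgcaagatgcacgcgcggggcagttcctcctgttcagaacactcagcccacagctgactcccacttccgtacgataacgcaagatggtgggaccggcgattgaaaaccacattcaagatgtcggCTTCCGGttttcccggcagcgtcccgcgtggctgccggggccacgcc
In these windows Mrps18b held TGCGCA 220 bases before the start and Mrpl23 held it at 63 bases. Mrpl3 held CCGGAAG at 19 bases, Mrps22 at 11 bases and Mrpl52 at 47 bases. Mrps18c held CACGTG at 163 bases and CCGGAAG at 156 bases before the start, next to each other. The printed Mrps21 window held none of the 4 letter strings. The longer windows of the next paragraph also take in bases after the start, and there Mrps21 and Mrps18b each held CCGGAAG. A match is a description of the letters and not of a bound site.

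RefSeq promoter windows of 300 bases, 250 before and 50 after the start, were at hand for 68 of the 77 genes, spread over 16 chromosomes. The letters CCGGAAG stood in 35.3% of the members' windows and in 12.5% of those of 15613 measured genes. TGCGCA stood in 30.9% of the members' windows against 10.7%, and GATGGCG in 11.8% against 4.7%. CACGTG was in 7.4% against 8.4%, and CCAAT, which is not marked in the printed sequences, in 38.2% of both. None of these strings contains another. Shares of CCGGAAG and TGCGCA above those of all genes were not particular to the members. CCGGAAG stood in 36.7% of the windows of cytosolic ribosomal protein genes and 24.2% of those of respiratory chain genes. TGCGCA stood in 18.4% and 25.8% of these windows, and GATGGCG in 4.1% and 13.6%. The median GC content was 58.2% for the members and 57.7% for all. The letters CG in a row were more frequent, with a median count per window of 21 for the members and 15 for all. All the strings but CCAAT contain CG, and its part in their shares was not tested. Both CCGGAAG and TGCGCA were in 8 members' windows and neither in 31. A gene that starts on the opposite strand within 1000 bases was found for 26 of the 68 members (38.2%) and for 13.4% of the measured genes. Mrpl46 and Mrps11, a large-subunit and a small-subunit gene, are such a pair, with starts 42 bases apart. Mrpl43 faces Twnk, the helicase of mitochondrial DNA, and Mrpl47 faces Ndufb5, a subunit of respiratory complex I.

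Across the groups the family was lowest in sorted LT-HSC and highest in GMP lines with dox. The lowest of the 8 group means was that of sorted LT-HSC for 65 of the 77 genes and that of GMP lines without dox for 7. The highest was that of GMP lines with dox for 43 genes and that of sorted GMP for 15. A gene's group means spanned 0.20 to 1.61, with a median span of 0.64, and 15 genes spanned over 1. All but 3 genes lay above the median of all values (5.86) in every group. The exceptions were Mrps27, below it in 6 groups, Mrpl38 in 2 and Mrpl43 in 1.

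**Figure D1:**
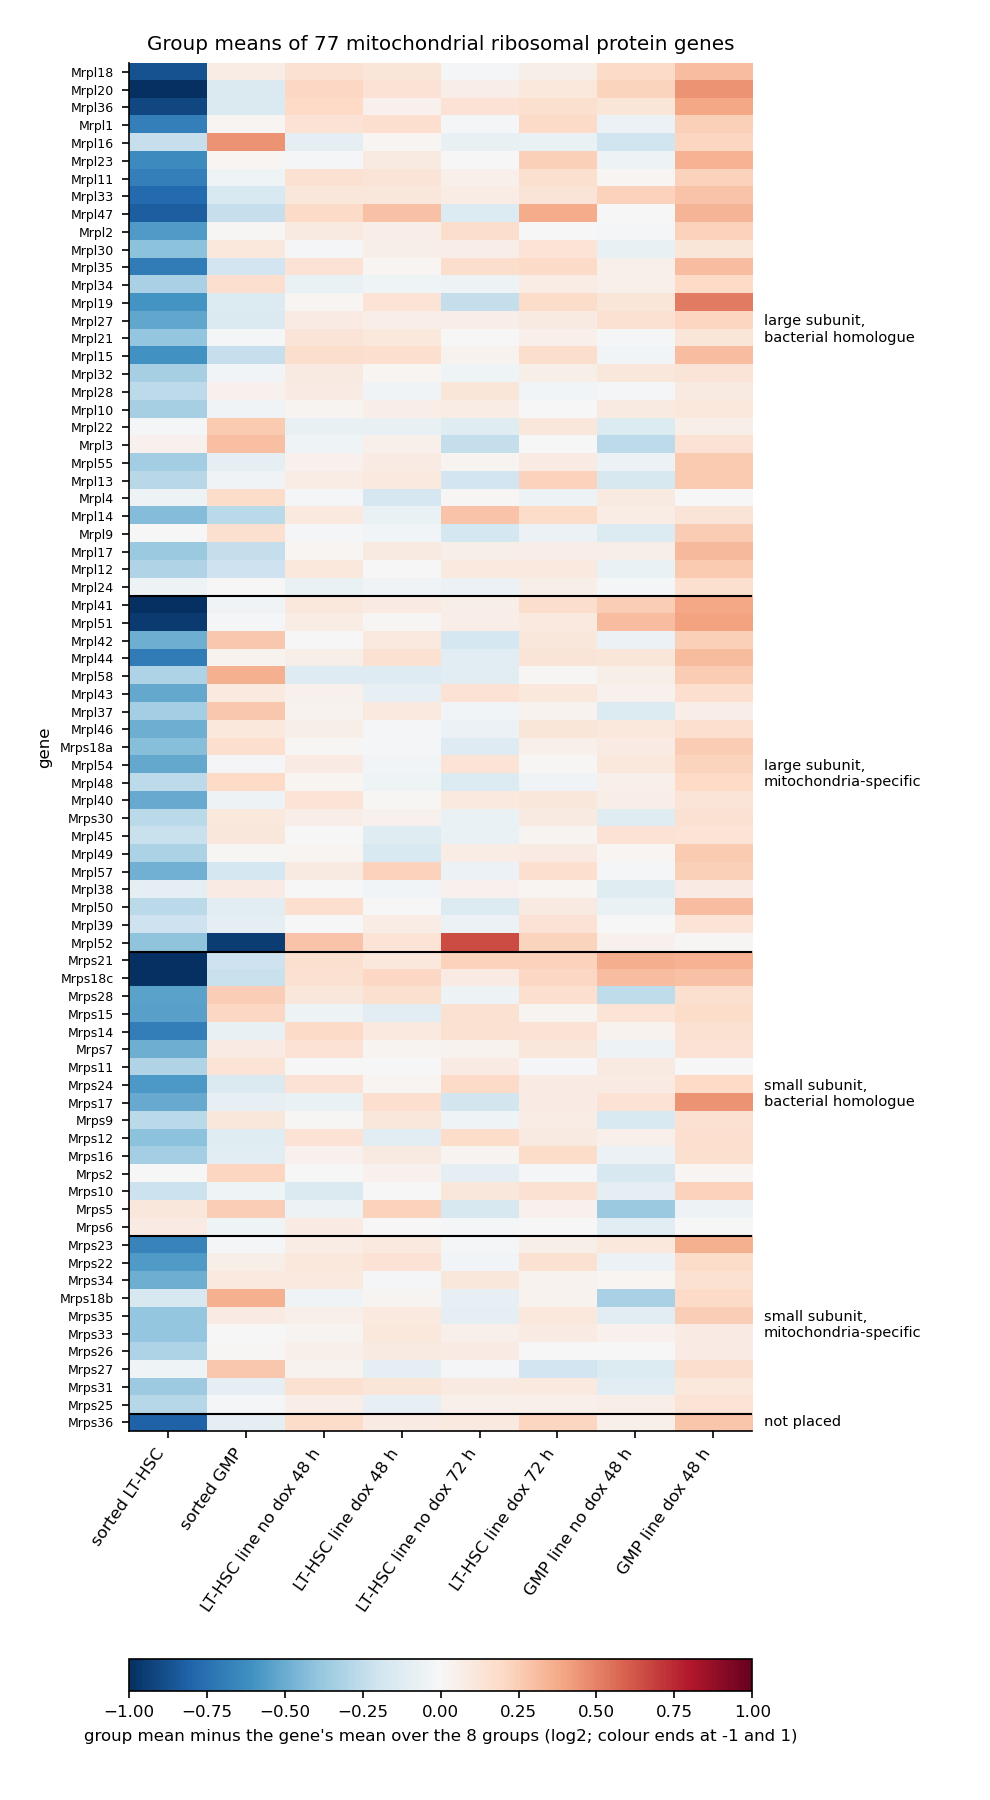
Group means of the 77 genes (rows, by subunit and bacterial homologue) in the 8 groups (columns), as the log2 difference from the gene's mean over the groups, with colours ending at -1 and 1. The sorted LT-HSC column is the lowest for 65 genes, Mrpl52 is lowest in sorted GMP, and the GMP line column with dox is the highest for 43.

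The median deviation of the family from each gene's mean was -0.41, -0.32, -0.41 and -0.55 (log2) on the 4 sorted LT-HSC arrays. It was -0.03, 0.03, 0.06 and -0.03 on the sorted GMP arrays. In GMP lines it was 0.05, -0.03 and 0.02 without dox and 0.20, 0.25, 0.12 and 0.25 with dox. The LT-HSC lines without dox gave 0.15, 0.03 and 0.03 at 48 h and 0.05, 0.00 and -0.01 at 72 h. With dox they gave 0.18 and -0.06 at 48 h and 0.14, 0.06 and 0.09 at 72 h. The sorted LT-HSC arrays lay below all others, and the GMP line arrays with dox lay above those without dox. The 2 LT-HSC line arrays with dox at 48 h lay apart from each other. Over all arrays, 61 cytosolic ribosomal protein genes stayed between -0.08 and 0.07 on the same scale.

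**Figure D2:**
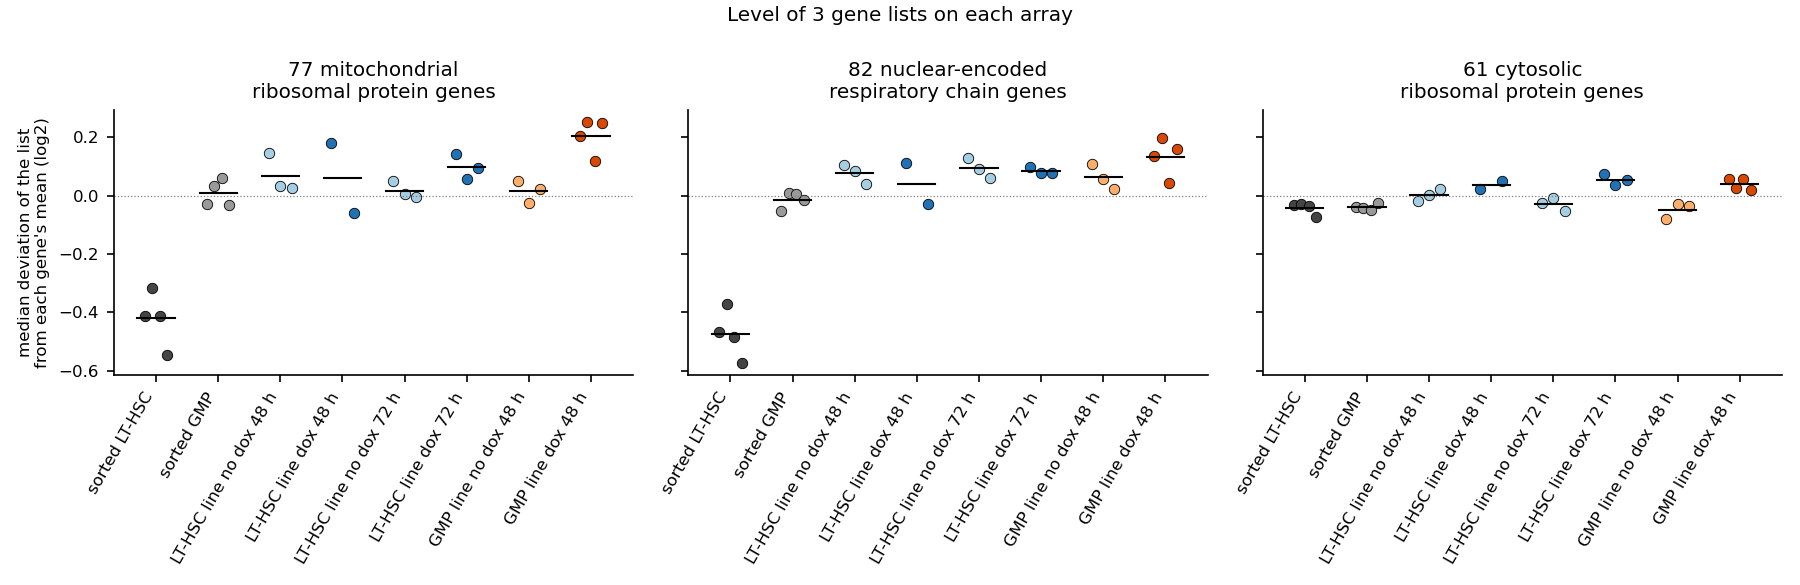
Each point is 1 array: the median over a list of the log2 difference between a gene's value and its mean over the 8 groups, for 77 mitochondrial ribosomal protein genes, 82 nuclear-encoded respiratory chain genes and 61 cytosolic ribosomal protein genes, with a bar at each group's mean. Sorted LT-HSC arrays lie at -0.32 to -0.55 for the mitochondrial ribosomal list, and the cytosolic list stays between -0.08 and 0.07.

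The first comparison asks how the 2 sorted cell types differ before any transformation. In sorted GMP, 60 of the 77 genes were higher than in sorted LT-HSC and 1 was lower (limma, p adjusted over all genes with the Benjamini-Hochberg method, called under 0.05). The median difference was 0.44 on the log2 scale, a fold of 1.35. Of all genes, 16.8% were higher and 15.3% lower, with a median of -0.01. Most members are bright, and dim genes pass less often. In a fit of the 11591 genes with a group mean above the median of all values, 29.3% were higher and 22% lower. The arrays of the 2 groups did not overlap for 52 genes that were higher and 1 that was lower, against 16.1% and 14.6% of all genes. The rise took in both subunits, with 38 of 50 large-subunit and 21 of 26 small-subunit genes called higher. Of the genes counted with a bacterial homologue 33 of 46 were called higher, and of those counted as mitochondria-specific 26 of 30.

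The largest difference was that of Mrps21, the small-subunit protein homologous to bacterial S21. It read 8.67, 9.19, 9.0 and 8.52 in LT-HSC and 9.85, 9.86, 9.88 and 9.90 in GMP. The groups did not overlap, and the LT-HSC arrays spread far more widely than the GMP arrays. The difference was 1.03 ± 0.10 (standard error of the fit, as for every ± that follows), a fold of 2.04, with limma's adjusted p = 1.53e-08.

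Mrpl41, a mitochondria-specific large-subunit protein, read 8.88, 9.15, 8.87 and 8.34 in LT-HSC and 9.72, 9.89, 9.82 and 9.81 in GMP. Every GMP array lay above every LT-HSC array, by 1.00 ± 0.11 on average (limma adjusted p = 7.59e-08), and a second probe set annotated to Mrpl41 gave 0.64. Mrpl18 rose by 0.95 ± 0.09, Mrpl51 by 0.95 ± 0.09 and Mrpl20 by 0.91 ± 0.10. For Mrpl51 a second probe set gave 0.89. Mrps18c, one of the S18 paralogues of the small subunit, read 9.93, 10.11, 10.24 and 9.94 in LT-HSC and 10.86, 10.90, 10.83 and 10.84 in GMP. Its groups were also apart, with a difference of 0.80 ± 0.07 (limma adjusted p = 4.94e-09). Of its paralogues, Mrps18a, which sits in the large subunit, rose by 0.59 ± 0.14 (adjusted p = 0.00183) and Mrps18b by 0.51 ± 0.12 (adjusted p = 0.00191).

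Mrpl52 was the gene that went the other way. This mitochondria-specific large-subunit gene read 7.53, 7.59, 7.51 and 7.15 in LT-HSC and 6.93, 6.86, 6.83 and 6.96 in GMP. The groups did not overlap, and its signal fell by 0.55 ± 0.12 (limma adjusted p = 0.000545), to a fold of 0.682. Mrps6 was the only other member with a negative difference, -0.13 ± 0.08, and did not pass the test (adjusted p = 0.255). Among members that did not pass were Mrpl12, the stalk protein that brings translation factors to the ribosome, at 0.09 ± 0.10 (adjusted p = 0.577), and Mrps12, a protein of the decoding centre, at 0.29 ± 0.17 (adjusted p = 0.225). Mrps36, of which RefSeq names 3 pseudogene copies, rose by 0.71 ± 0.13 (adjusted p = 8.18e-05) and Mrps30 by 0.38 ± 0.09 (adjusted p = 0.00156).

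Nuclear-encoded respiratory chain genes moved in the same comparison, with 71 of 82 higher, 0 lower and a median of 0.47. Of the 61 cytosolic ribosomal protein genes, 7 were higher and 1 lower, with a median of -0.00. The proliferation list, whose level was -0.33 to -0.79 on LT-HSC arrays and 0.15 to 0.28 on GMP arrays relative to its mean, had 13 of 14 genes higher. Its part in the members' difference was not tested.

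**Figure D3:**
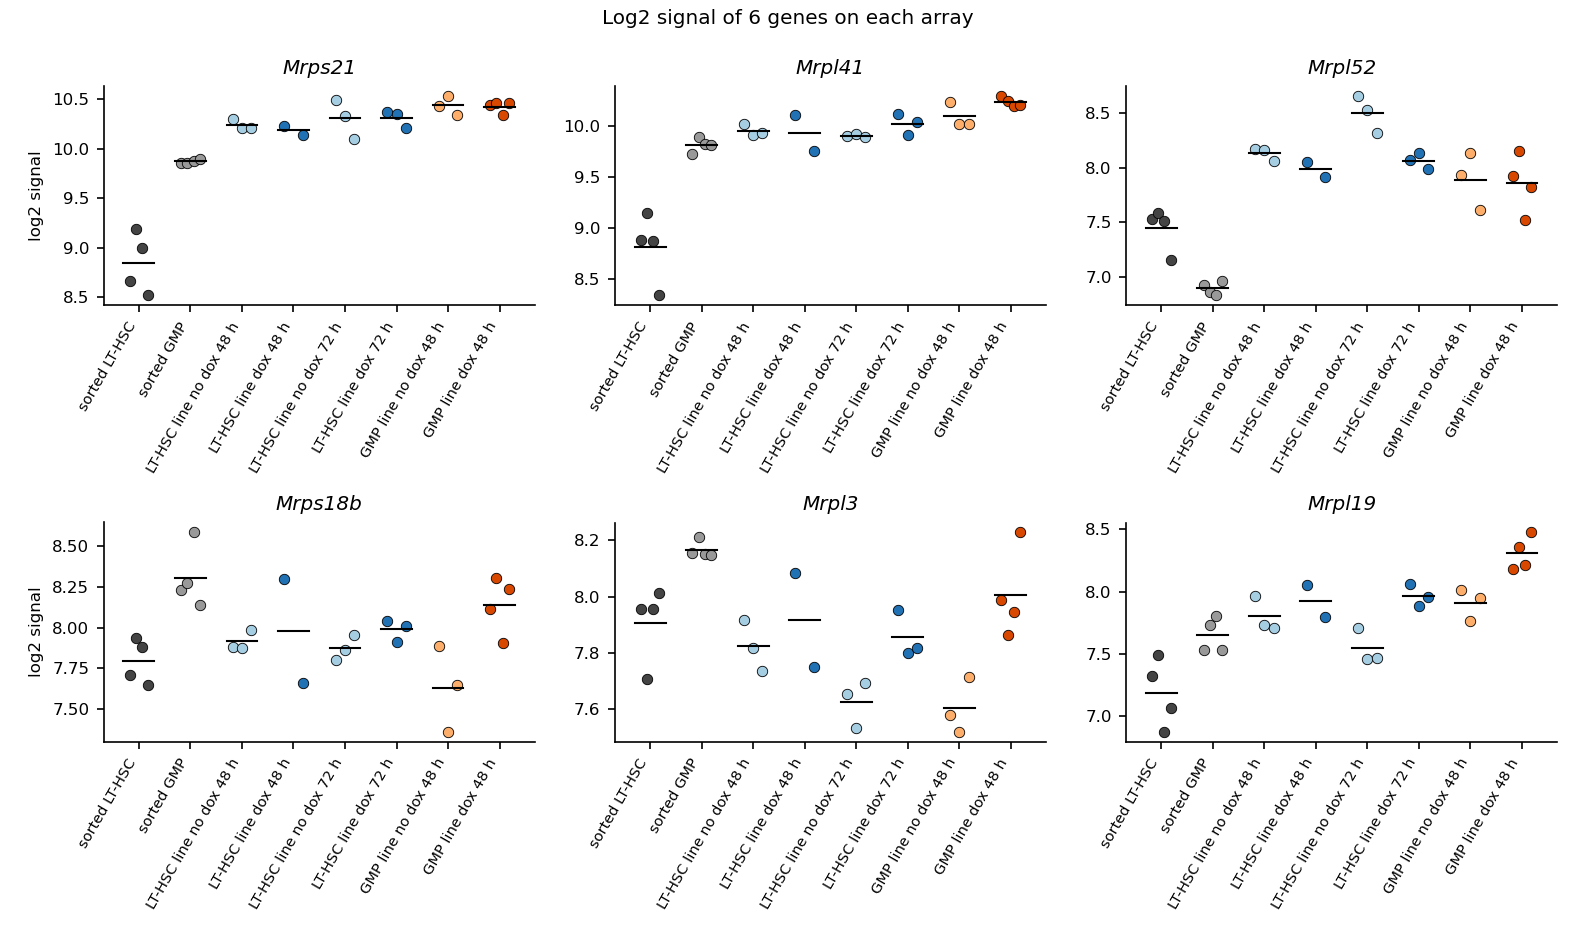
Log2 signal of 6 genes on each array by group, with a bar at each group's mean. Mrps21 and Mrpl41 are lowest in sorted LT-HSC, Mrpl52 is lowest in sorted GMP, and Mrps18b, Mrpl3 and Mrpl19 are higher with dox than without in GMP lines.

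The second comparison asks what dox did in lines from GMP. With dox, 17 of the 77 genes were higher than without it and 0 were lower (limma adjusted p under 0.05, with 35 higher and 0 lower at an unadjusted p under 0.05, where 11.4% of all genes were higher and 9.63% lower at that level). The median difference was 0.20, a fold of 1.15, and 71 of the 77 differences were positive. By adjusted p, 5.75% of all genes were higher and 5.18% lower, with a median of 0.01. In the fit of the 11591 brighter genes, 11% were higher and 9.71% lower. The arrays with and without dox did not overlap for 39 members, all higher with dox, against 11.0% of all genes higher and 8.92% lower. The called genes were 11 of the 50 large-subunit and 6 of the 26 small-subunit genes. They were 13 of 46 counted with a bacterial homologue and 4 of 30 counted as mitochondria-specific, Mrps18b among the latter.

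Mrps18b, the S18 paralogue with the largest dox difference of the family, read 7.88, 7.36 and 7.64 without dox and 8.11, 8.30, 7.90 and 8.24 with it. The groups touched but did not overlap, and the line of replicate 2 without dox was the lowest array. The difference was 0.51 ± 0.13, a fold of 1.42, with limma's adjusted p = 0.0123. Mrps18c and Mrps18a gave -0.01 ± 0.08 and 0.17, and neither passed. The difference between these paralogues in their response was not tested.

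Mrpl3, whose human gene is mutated in a mitochondrial cardiomyopathy, read 7.58, 7.52 and 7.72 without dox and 7.99, 7.86, 7.95 and 8.23 with it. All arrays with dox were above all without, by 0.40 ± 0.09 (limma adjusted p = 0.00429). Mrpl23, a protein at the exit of the polypeptide tunnel, read 9.05, 9.02 and 9.06 without dox and 9.43, 9.52, 9.30 and 9.52 with it. The 3 arrays without dox were nearly level and the groups were apart, by 0.40 ± 0.10 (limma adjusted p = 0.00841). A second probe set of Mrpl23 gave 0.37, with limma's adjusted p = 0.0892 in a fit over all probe sets, and RefSeq names a pseudogene copy of this gene.

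Mrpl13 read 8.31, 8.09 and 8.36 without dox and 8.61, 8.76, 8.65 and 8.70 with it, a difference of 0.43 ± 0.11 (limma adjusted p = 0.0149). Mrpl16 read 8.01, 7.63 and 7.89 against 8.29, 8.29, 8.05 and 8.40 (0.41 ± 0.11, limma adjusted p = 0.016). In both genes the groups were apart and the line of replicate 2 without dox was lowest. Mrps28 read 8.61, 8.23 and 8.39 without dox and 8.82, 8.99, 8.66 and 8.84 with it, also 0.41 ± 0.11 (limma adjusted p = 0.016). Mrpl19 read 8.01, 7.76 and 7.95 without dox and 8.18, 8.36, 8.21 and 8.48 with it, 0.40 ± 0.12 (limma adjusted p = 0.0327). These are core proteins with bacterial homologues, and none of their arrays with dox reached down to those without.

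Mrpl12 read 7.77, 7.52 and 7.79 without dox and 7.99, 8.06, 7.93 and 8.09 with it. Its groups were apart, and its difference of 0.33 ± 0.11 passed narrowly (limma adjusted p = 0.0457). The other called members were Mrpl9 (0.39), Mrpl50 (0.37), Mrps35 (0.36), Mrpl15 (0.34), Mrpl55 (0.32), Mrps17 (0.31), Mrps22 (0.24), Mrps9 (0.30) and Mrpl24 (0.18). Mrps22 is a small-subunit gene mutated in human mitochondrial disease. Mrpl24 had the smallest difference among the called genes and a small spread, with 9.39, 9.41 and 9.46 without dox and 9.63, 9.61, 9.63 and 9.55 with it (limma adjusted p = 0.0311). Mrps30 gave 0.28 ± 0.10 (adjusted p = 0.0727) and Mrps21 -0.01 ± 0.11 (adjusted p = 0.975).

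Within lines, the median of the members was 0.15 for the line of replicate 1, 0.27 for replicate 2 and 0.10 for replicate 3, with 65, 72 and 56 of the 77 genes higher with dox. Of all genes, 50.4%, 57.6% and 54.9% were higher in the same lines. With differences rounded to 2 decimals, 47 members were above 0 in all 3 lines and 1 was below 0 in all 3. Differences that rounded to 0 were left out of both counts, and the same count over all genes was not made. The direction held in each line, and the line of replicate 2 gave the largest difference.

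The count of called genes leaned on that line's array without dox. When it was left out, 3 members were called, Mrps35 (limma adjusted p = 0.025), Mrpl3 (adjusted p = 0.0415) and Mrpl23 (adjusted p = 0.0459), and 2.95% of all genes were higher. With line as a block 13 members were called. Mrpl19 (limma adjusted p = 0.0613), Mrps22 (0.0614), Mrpl24 (0.0831), Mrpl12 (0.111), Mrpl55 (0.111) and Mrps17 (0.114) no longer passed in that fit, and Mrpl49 (0.0398) and Mrpl35 (0.0466) did. When dox replicate 1, 2 or 4 was left out, 11, 10 and 10 members were called. The median stayed between 0.171 and 0.222 whichever array was left out.

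The other lists were counted in the same lines. Of the cytosolic ribosomal protein genes 5 were higher and 1 lower (median 0.08), of the respiratory chain genes 2 were higher and 0 lower (median 0.06), and of the proliferation genes 0 were higher and 1 lower (median -0.02). The mean of 9 late neutrophil markers was 10.39 to 10.53 without dox and 7.77 to 7.99 with it, and that of 7 monocyte and macrophage markers 8.07 to 9.07 against 6.90 to 8.05. The GMP and primary granule markers were at 9.35 to 9.43 without dox and 9.08 to 9.26 with it. The part of these shifts in the members' difference was not tested.

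The sorted comparison and the dox comparison of GMP lines share no array. Both called 12 of the members higher, which is 20.0% of the 60 genes higher in sorted GMP and 70.6% of the 17 genes higher with dox. Among all 77 members 22.1% were higher with dox and 77.9% in sorted GMP, so the overlap was no larger than these shares. A further 49 were called in the sorted comparison alone, Mrpl52 among them as lower, 5 in the dox comparison alone and 11 in neither. The 5 were Mrpl9, Mrpl12, Mrpl13, Mrpl24 and Mrpl50. Mrps21 and Mrps18c lay at the other end, with differences of 1.03 and 0.80 between the sorted cells and of -0.01 and -0.01 with dox. Of the windows of 12 members called with dox, CCGGAAG stood in 3 (25%) and TGCGCA in 5 (41.7%), against 21 (37.5%) and 16 (28.6%) of the windows of 56 other members.

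**Figure D4:**
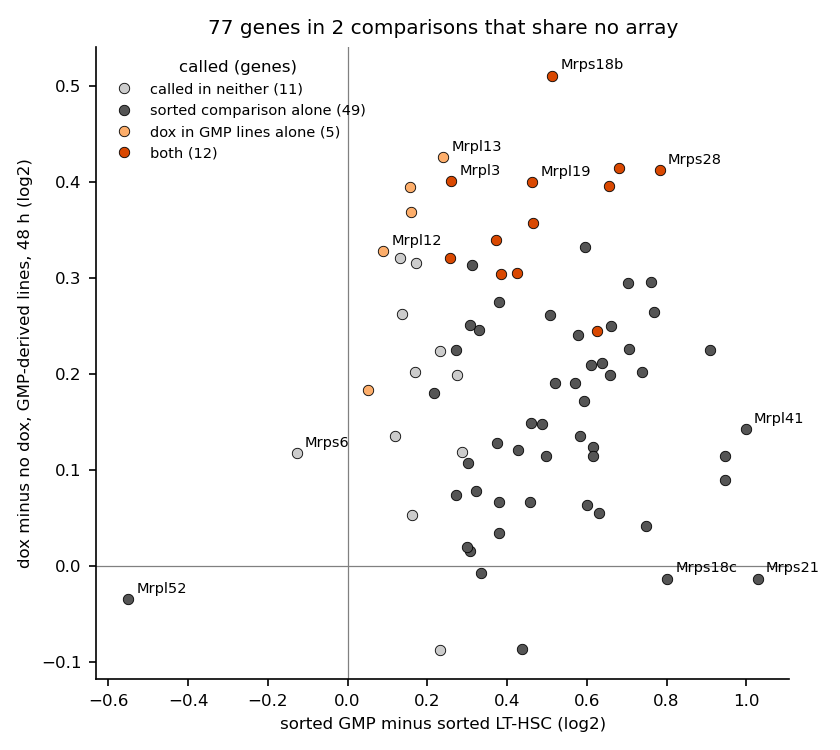
Each point is 1 of the 77 genes, with its log2 difference between sorted GMP and sorted LT-HSC (horizontal) and between dox and no dox in GMP lines (vertical), coloured by the comparison in which it was called. Mrps21 lies at 1.03 and -0.01, Mrps18b at 0.51 and 0.51, and Mrpl52 alone lies below 0 on both axes.

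In lines from LT-HSC at 48 h no dox difference was found in the family. Of the 77 genes 0 were called higher and 0 lower with limma where 0.155% of all genes were called higher and 0.286% lower. At an unadjusted p under 0.05, 1 member was higher and 0 lower, where 2.93% of all genes were higher and 4.37% lower. The median was -0.02, and 34 differences were positive. With 2 arrays with dox this was the smallest group. The 2 lines went different ways, with a median of 0.03 and 46 genes higher in the line of replicate 1, and a median of -0.08 and 21 genes higher in that of replicate 2. Of all genes 49.9% and 47.7% were higher in these lines. Mrps18b showed the gap between the lines, at 8.30 and 7.66 on the 2 arrays with dox.

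At 72 h, 3 members were higher with dox and 0 lower, where 3.43% of all genes were higher and 3.72% lower, so the members' share was near that of all genes. In the fit of the 11591 brighter genes, 7.2% were higher and 6.46% lower. The median of the members was 0.08, beside -0.03 for all genes, and 58 differences were positive. Mrpl47 read 6.77, 6.69 and 6.37 without dox and 7.29, 6.99 and 7.07 with it, 0.51 ± 0.14 (limma adjusted p = 0.0274). Its second probe set gave -0.10, so its probe sets disagree. Mrpl13 read 8.36, 8.23 and 8.07 without dox and 8.73, 8.54 and 8.66 with it, 0.42 ± 0.12 (limma adjusted p = 0.0344). Mrpl19 read 7.71, 7.46 and 7.47 without dox and 8.06, 7.88 and 7.96 with it, 0.42 ± 0.13 (limma adjusted p = 0.0479). In these 3 genes the arrays with and without dox were apart. With only the groups compared in the fit none of the 3 passed (limma adjusted p = 0.0675 to 0.077).

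Mrpl19 was the only member called in 3 of the 4 comparisons of sorted cells and of dox. In the sorted cells it read 7.32, 7.49, 6.88 and 7.06 in LT-HSC and 7.53, 7.73, 7.81 and 7.53 in GMP. The groups were apart, though the closest arrays nearly touched, and the difference was 0.46 ± 0.11 (limma adjusted p = 0.00195). Mrpl13 gave 0.24 between the sorted cells (adjusted p = 0.0929), so its calls were those with dox in both kinds of line.

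Mrpl52 again had a sign of its own at 72 h, with 8.66, 8.53 and 8.32 without dox and 8.07, 8.14 and 7.99 with it. The arrays were apart and dox arrays were lower, but the difference of -0.44 ± 0.14 missed the threshold (limma adjusted p = 0.0507). With line as a block it passed (limma adjusted p = 0.00513). The 3 calls at 72 h depended on single arrays. None of the members was called higher without dox replicate 1, without dox replicate 3 or without replicate 3 of the lines without dox, and only Mrpl47 was without replicate 2 of the latter. The line medians were 0.07, 0.03 and 0.11, with 43, 45 and 57 members higher. Of all genes 40.7%, 57.6% and 41.4% were higher in the same lines, with medians of -0.05, 0.04 and -0.06. In the line of replicate 2 the members' median was thus near that of all genes. Late neutrophil markers were at 9.18 to 10.77 without dox and 8.38 to 9.0 with it at 72 h, and their part in these values was not tested.

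The dox difference of GMP lines was set against that of LT-HSC lines at 48 h in the same fit. The difference between the 2 was positive for 73 of the 77 genes with a median of 0.20. None of the members passed in either direction (15 higher and 0 lower at an unadjusted p under 0.05, where 5.06% of all genes were higher and 3.68% lower at that level). Called genes made up 0.0702% of all genes in the higher and 0.161% in the lower direction. The largest was that of Mrpl50, 0.53 ± 0.16 (limma adjusted p = 0.217), and Mrps18b gave 0.45 ± 0.21 (adjusted p = 0.549). The median rose to 0.315 or dropped to 0.084 when an LT-HSC line array with dox was left out. A dox response that differs by origin was thus not called for any member at this number of arrays. The change of the dox difference from 48 h to 72 h in LT-HSC lines had a median of 0.10, with 0 members and 0 genes called. At an unadjusted p under 0.05, 2 members were higher and 0 lower, where 2.13% of all genes were higher and 3.55% lower. Between 48 h and 72 h themselves, 0 members were called with dox (median 0.04) or without it (median -0.05). Without dox 0.120% of all genes were called higher and 0.0602% lower, and with dox 0 were. At an unadjusted p under 0.05, 1 member was higher and 0 lower with dox, where 1.38% of all genes were higher and 0.873% lower. Without dox 2 were higher and 3 lower at that level, where 7.85% of all genes were higher and 5.13% lower.

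Lines from GMP were then set against lines from LT-HSC at 48 h. With dox the median difference, GMP lines minus LT-HSC lines, was 0.17, beside 0.01 for all genes. Of the members 69 were positive and 1 was called, where 0.943% of all genes were higher and 1.17% lower. At an unadjusted p under 0.05, 19 members were higher and 0 lower, where 5.53% of all genes were higher and 4.48% lower. The called gene was Mrpl58, which frees peptides from stalled ribosomes. It read 7.53, 7.63, 7.42 and 7.52 in GMP lines and 7.26 and 7.01 in LT-HSC lines, apart by 0.39 ± 0.10 (limma adjusted p = 0.0487). The call was lost with quantile normalization (limma adjusted p = 0.0846), with a trended prior (0.0604) and with only the groups compared (0.122). With 1 array left out it held without GMP line replicate 3 (0.0456) and was lost without any other array of these groups. With dox, late neutrophil markers were at 7.77 to 7.99 in GMP lines and 8.62 to 8.64 in LT-HSC lines. Mast cell and basophil markers were at 5.16 to 6.17 against 6.81 to 6.94. GMP and primary granule markers were at 9.08 to 9.26 against 8.91 to 9.06. The part of these marker differences in the members' difference was not tested.

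Without dox the median was -0.07, 31 members were positive and 0 were called, where 3.28% of all genes were higher and 3.52% lower. At an unadjusted p under 0.05, 1 member was higher and 7 were lower, where 8.7% of all genes were higher and 9.08% lower, so the members' share of lower genes was near that of all genes.

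The lines were then compared with the sorted cells of their origin. These comparisons share the sorted arrays with the first one, so their values are given side by side and not as further support. LT-HSC lines without dox at 48 h were higher than sorted LT-HSC for 60 members and lower for 0, with a median of 0.44, where 17.1% of all genes were higher and 18.1% lower. With dox 52 were higher and 0 lower, with a median of 0.46, where 14.6% of all genes were higher and 14.6% lower. In the fit of the 11591 brighter genes, 29.1% were higher and 25% lower without dox, and 25.8% and 21.4% with it. Mrps21 read 10.30, 10.21 and 10.21 in the lines without dox, above every sorted array. It differed by 1.40 ± 0.11 from sorted LT-HSC, a fold of 2.63 (limma adjusted p = 3.26e-10). Next came Mrpl20 (1.26 ± 0.11), Mrps18c (1.18 ± 0.08), Mrpl41 (1.14 ± 0.12), Mrpl36 (1.11 ± 0.13) and Mrpl51 (1.03 ± 0.10). Mrps36 rose by 0.99 ± 0.14 and Mrps12 by 0.55 ± 0.18 (limma adjusted p = 0.0188). The call of Mrps12 was lost with quantile normalization (limma adjusted p = 0.0838) and with only the groups compared (0.0502). Among the few that stayed near the stem cell level were Mrpl3, at -0.09 ± 0.09 (adjusted p = 0.526), and Mrpl24, at -0.02 ± 0.05 (adjusted p = 0.856). Of the respiratory chain genes 68 were higher and 1 lower (median 0.52), of the cytosolic ribosomal protein genes 11 were higher and 3 lower (median 0.04), and of the proliferation genes 10 were higher and 0 lower (median 0.61). The mean of the late neutrophil markers was 6.02 to 7.32 in sorted LT-HSC, 9.06 to 9.91 in the lines without dox and 8.62 to 8.64 in those with dox at 48 h, and its part in these differences was not tested.

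GMP lines differed from sorted GMP in both directions when grown without dox. Without dox 8 members were higher and 11 lower, with a median of 0.00, where 10.8% of all genes were higher and 12.7% lower. The members' shares were thus near those of all genes. In the fit of the 11591 brighter genes, 18.3% were higher and 21.6% lower. With dox 28 were higher and 0 lower, with a median of 0.18, where 10.0% of all genes were higher and 9.76% lower. Of the brighter genes, 17.6% were higher and 16.9% lower with dox. The mean of the late neutrophil markers was 6.39 to 7.98 in sorted GMP, 10.39 to 10.53 in the lines without dox and 7.77 to 7.99 in those with dox, and its part in these differences was not tested.

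The members higher without dox were led by Mrpl52, which read 7.93, 8.13 and 7.61 in the lines and at most 6.96 in sorted GMP. It was higher by 1.00 ± 0.13, a fold of 1.99 (limma adjusted p = 2.11e-06), and with dox, at 7.92, 8.15, 7.52 and 7.82, by 0.96 ± 0.12. Every line of either origin was thus above sorted GMP for this gene. Mrps21, at 10.44, 10.54 and 10.34, was higher by 0.57 ± 0.11 (limma adjusted p = 0.000448). Mrps18c followed at 0.53 ± 0.08, Mrpl33 at 0.38 ± 0.09, Mrpl20 at 0.37 ± 0.11 and Mrpl14 at 0.35 ± 0.08. The remaining called genes were Mrpl51 (0.32) and Mrpl35 (0.24). A second probe set of Mrpl51 gave 0.18, with limma's adjusted p = 0.453 in a fit over all probe sets. With the mean of its probe sets the call of Mrpl51 was lost (limma adjusted p = 0.114).

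The members lower without dox included genes that were higher with dox than without it in these lines. Mrps18b read 8.23, 8.27, 8.59 and 8.14 in sorted GMP, above the 3 line arrays without dox given for it. It was lower in the lines by 0.68 ± 0.13 (limma adjusted p = 0.000481), and the lines with dox differed from sorted GMP by -0.17 ± 0.12 (adjusted p = 0.418). Mrpl3 read 8.16, 8.21, 8.15 and 8.15 in sorted GMP, and the lines without dox lay 0.56 ± 0.09 below (limma adjusted p = 5.29e-05). Mrpl16 lay 0.65 ± 0.11 below, Mrps5 0.61 ± 0.14 and Mrps28 0.50 ± 0.11. The other genes lower without dox were Mrpl37, Mrps27, a protein with pentatricopeptide repeats, Mrps2, Mrpl42, Mrpl58 and Mrps9, with decreases between 0.26 and 0.41. The dox comparison of GMP lines shares the arrays without dox with this one.

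**Figure D5:**
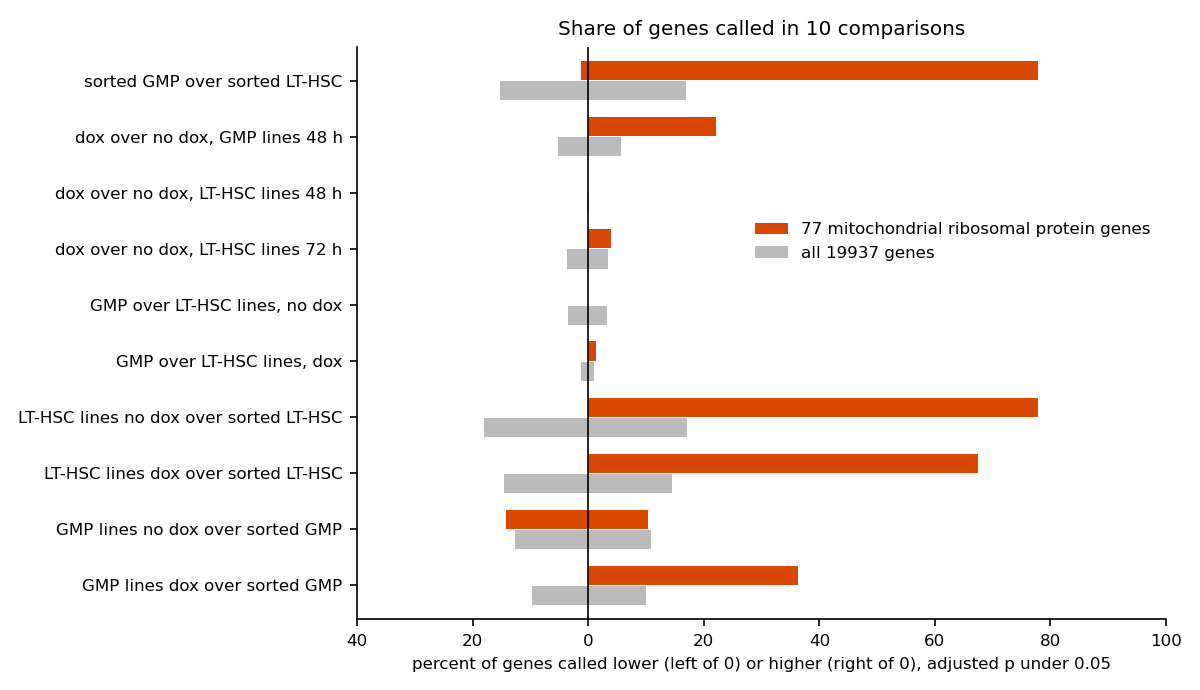
Percent of the 77 genes and of all 19937 genes called higher (right of 0) or lower (left of 0) in 10 comparisons, at a limma adjusted p under 0.05. The members' bars to the right exceed those of all genes between sorted GMP and LT-HSC (60 of 77) and with dox in GMP lines (17 of 77). They also exceed those of all genes in LT-HSC lines over sorted LT-HSC and in GMP lines with dox over sorted GMP (28 of 77). For dox in LT-HSC lines they lie near those of all genes.

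Other genes of mitochondrial translation were taken from lists of their known roles. Their counts stand beside shares of all genes of 16.8% higher and 15.3% lower between the sorted cells, 5.75% and 5.18% with dox in GMP lines and 3.43% and 3.72% with dox in LT-HSC lines at 72 h. The lists are short, and nothing particular to a list is read from its count. With only the groups compared in the fit, the calls at 72 h of Ptcd3, Mtg1, Noa1, Tfam, Polg and Mterf2 were lost (limma adjusted p = 0.0539 for Noa1 to 0.12 for Mterf2), as was that of Myc with dox in GMP lines (0.0778). With median centring the calls of Tfam (0.133) and Twnk (0.109) between the sorted cells were lost. Of 4 mitochondrial ribosomal proteins with other names, 3 were higher in sorted GMP than in LT-HSC, 2 were higher with dox in GMP lines and 1 in LT-HSC lines at 72 h, with 0 lower in any of these. Ptcd3, a pentatricopeptide repeat protein of the small subunit, was called in all 3, at 0.35 ± 0.09, 0.46 ± 0.10 (limma adjusted p = 0.00197) and 0.52 ± 0.10 (adjusted p = 0.00246). Chchd1 rose by 0.64 ± 0.08 between the sorted cells, and Gadd45gip1 by 0.43 ± 0.09 there and by 0.36 ± 0.10 with dox in GMP lines. Dap3, a GTP-binding protein of the small subunit, gave 0.10 ± 0.09 between the sorted cells and 0.18 ± 0.10 with dox, and passed in neither.

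Of 25 genes for ribosome assembly and rRNA modification, 6 were higher and 2 lower in sorted GMP, and with dox 6 were higher in GMP lines and 2 in LT-HSC lines at 72 h, with 0 lower. Ddx28, a helicase of large-subunit assembly, rose by 0.75 ± 0.11 between the sorted cells, and Rbfa, which matures the small subunit, by 0.59 ± 0.10. Nsun4, an rRNA methyltransferase, fell by 0.69 ± 0.11, and Mettl15, another, by 0.38 ± 0.11. With dox in GMP lines the largest rise was that of Mtg1, a GTPase of large-subunit assembly, at 0.64 ± 0.10 (limma adjusted p = 7.5e-05). Gtpbp10, another such GTPase, rose by 0.55 ± 0.13, Tfb1m, which methylates the small rRNA, by 0.47 ± 0.15 and Noa1, a GTPase, by 0.45 ± 0.10. With line as a block Tfb1m no longer passed (limma adjusted p = 0.093). Mtg1 and Noa1 also rose in LT-HSC lines at 72 h, by 0.46 ± 0.10 and 0.39 ± 0.10.

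Of 14 translation factors and messenger RNA binding proteins, 6 were higher in sorted GMP, 4 with dox in GMP lines and 1 with dox in LT-HSC lines at 72 h, and 0 were lower. Gfm1 and Tufm, which drive elongation, rose by 0.69 ± 0.08 and 0.63 ± 0.10 between the sorted cells. Slirp and Lrpprc, partners that stabilise mitochondrial messages, rose by 0.64 ± 0.08 and 0.40 ± 0.07. With dox in GMP lines Lrpprc rose by 0.43 ± 0.08 (limma adjusted p = 0.00039), Mtrf1, of the release factor family, by 0.42 ± 0.12, Tufm by 0.39 ± 0.10 and Mtif2, an initiation factor, by 0.30 ± 0.09. Mtrf1 also rose in LT-HSC lines at 72 h, by 0.49 ± 0.12.

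Genes for mitochondrial DNA and its transcription went both ways. Of 9, 1 was higher and 4 lower in sorted GMP, 2 were higher and 1 lower with dox in GMP lines, and 2 were higher and 1 lower with dox in LT-HSC lines at 72 h. Tefm, an elongation factor of mitochondrial transcription, rose by 0.61 ± 0.12 with dox in GMP lines and Twnk by 0.40 ± 0.12, while Polg, the DNA polymerase, fell by 0.31 ± 0.07. With line as a block Twnk no longer passed (limma adjusted p = 0.0693). Between the sorted cells Mterf2 fell by 0.66 ± 0.15, Polg2 by 0.52 ± 0.13, Twnk by 0.29 ± 0.11 and Tfam, which packages mitochondrial DNA, by 0.22 ± 0.08. In LT-HSC lines at 72 h Tfam rose by 0.43 ± 0.10 and Mterf2 by 0.65 ± 0.17, and Polg fell by 0.32 ± 0.08. Polrmt, the mitochondrial RNA polymerase, passed in none of these.

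Of 9 regulators of mitochondrial biogenesis, 0 were higher and 2 lower in sorted GMP, and with dox 3 were higher in GMP lines and 1 in LT-HSC lines at 72 h. Ppargc1a fell by 1.33 ± 0.10 between the sorted cells but lay below the median of all values in all 8 groups. Gabpb1, a subunit of the factor GABP, fell by 0.56 ± 0.10 between the sorted cells. With dox it rose by 0.44 ± 0.11 in GMP lines and 0.73 ± 0.11 in LT-HSC lines at 72 h. Pprc1, a coactivator, rose with dox in GMP lines by 0.44 ± 0.10 (limma adjusted p = 0.004) and Myc by 0.50 ± 0.11 (adjusted p = 0.0032). Between the sorted cells Myc gave -0.04 ± 0.10 and Pprc1 0.23 ± 0.09, and neither passed.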

How the data were processed

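Gene expression was measured with a gene-level Affymetrix array. Per the labels' protocols, RNA from a kit for small samples was amplified to cDNA, converted to sense-strand target and labelled with biotin. The authors deposited log2 signals for 34760 probe sets per array, and limma and R 3.1.1 are named in the submitters' processing notes. For their normalization no method is named in the sources used here. The number of arrays limits the precision.

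One probe set per gene was kept (highest mean), which left 19937 genes with 1 symbol. The 8 groups were fitted together with limma 3.58.1 in R 4.3.3 and compared by 2-sided moderated tests with Benjamini-Hochberg adjustment over all genes, and genes under 0.05 are called. Scripts were tested on simulated data. Of the members 8 had more than 1 probe set, and 1 probe set with several symbols was left out. RefSeq names pseudogene copies of Mrpl23, Mrpl27, Mrpl48 and Mrps36, so their signals may be shared. Named genes are, per comparison, up to 6 called members with the largest increase and up to 6 with the largest decrease whose arrays do not overlap, up to 4 members called against the majority, up to 6 called in the most of the first 4 comparisons, a fixed set of 8 members, and up to 3 called genes per pathway list with 6 fixed ones. Mrps22 and the other members printed outside this rule were chosen after their values were seen. The members and lists were chosen with earlier results of these data known.

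Within an origin, replicate numbers of cultured samples name the same cell line, so they pair them. Same-line deviations correlated at 0.291 to 0.401 in GMP lines (3 pairs) and -0.057 to 0.466 in LT-HSC lines (15 pairs). Promoter sequences come from RefSeq, build GRCm38.p6, and the array annotation is the platform's. Alternatives were quantile normalization, median centring, a filter on dim genes, a trended prior, array weights, only the groups compared, the mean of probe sets, the line as a block, and each array left out.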

Additional observations from a re-analysis of the deposited data

Results flagged for a closer look

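In groups of 4 arrays, 4 values of named members stood apart from the others of their group, of 87 groups tested, and chance gives about 1 in 20. Mrpl52 read 7.15 on sorted LT-HSC replicate 4, where the nearest array read 7.51. Mrpl3 read 8.21 on sorted GMP replicate 2, where the nearest read 8.16. Mrpl14 read 7.11 and Mrpl23 read 9.06 on sorted GMP replicate 1, where the nearest arrays read 7.33 and 9.13.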

How the results depend on the processing

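The small number of arrays, 2 to 4 per group, limits all comparisons. With quantile normalization the count of members lower with dox in LT-HSC lines at 72 h was 1, higher with dox in GMP over LT-HSC lines 0, lower in LT-HSC lines over sorted LT-HSC 1 with dox and 1 without, and lower in GMP lines with dox over sorted GMP 2, and the median of LT-HSC lines with dox over sorted LT-HSC was 0.345. The filter on dim genes gave 1 lower at 72 h, 1 lower in GMP over LT-HSC lines without dox and 1 lower in GMP lines with dox over sorted GMP. A trended prior gave 1 lower at 72 h and 0 higher in GMP over LT-HSC lines with dox. Array weights gave 1 lower at 72 h, 4 higher in GMP over LT-HSC lines with dox, 2 lower in GMP lines with dox and 14 higher in GMP lines without dox over sorted GMP. With only the groups compared, 0 were higher at 72 h and 0 in GMP over LT-HSC lines with dox. The cause was not tested.

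With each array left out, members higher with dox in GMP lines ranged from 3 to 17. At 72 h in LT-HSC lines the higher count ranged from 0 to 3 and the lower from 0 to 1. The median at 48 h in LT-HSC lines ranged from -0.122 to 0.1. For GMP over LT-HSC lines with dox the median ranged from 0.057 to 0.275 and the count from 0 to 1, and without dox the lower count from 0 to 1. The median of LT-HSC lines with dox over sorted LT-HSC ranged from 0.363 to 0.573. For GMP lines over sorted GMP the lower count with dox ranged from 0 to 1 and the higher count without dox from 5 to 7. The median of 72 h over 48 h with dox ranged from -0.086 to 0.152, of the difference between dox effects by origin from 0.084 to 0.315, and by time from -0.03 to 0.214. These shifts in medians came from leaving out either LT-HSC line array with dox at 48 h.

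With the replicate block, 1 member was lower at 72 h in LT-HSC lines, 13 were higher with dox in GMP lines and 62 were higher in sorted GMP, and the blocked fit moved no other count of members by over 1.5 times. Over all genes the block moved the calls for dox in LT-HSC lines at 48 h from 31 higher and 57 lower to 60 and 235, and those for 72 h over 48 h without dox from 24 and 12 to 156 and 74. Sorted arrays with the same number correlated at 0.02 to 0.06. Those numbers served as blocks in the blocked fit of the sorted comparison, and not in the main fit. Over the named genes, 0 values reversed, 3186 kept direction and side of the threshold, and 321 kept direction and lost the threshold, 234 of them with an array left out.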
